A study of Mus musculus with 6 samples.

Results

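The mouse kappa light chain locus carries 5 joining (J) segments, IGKJ1 to IGKJ5, between its V genes and the constant gene IGKC. These 5 segments were taken by name from the 66 J genes named in the B cell receptor tables of the study, which name 440 V, D, J and constant genes in all. Kappa contigs (assembled receptor transcripts) were read in barcodes called B cells and not T cells, when they had the high-confidence flag and at least 2 unique molecular identifiers (UMIs, counts of captured molecules). Contigs with the CDR3 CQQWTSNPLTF, the dominant kappa chain of the 564Igi mouse, were left out throughout. The knocked-in sequence is not among the labels, so this chain is called the candidate knock-in chain. Its commonest J segment was IGKJ5, the last of the locus, and its contigs are not part of the IGKJ5 shares below.

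A kappa gene is made by joining 1 V gene to 1 J segment, which deletes or inverts the DNA between them. While J segments remain downstream, an upstream V gene can be joined to one of them and replace the first joint. This is called receptor editing and is known to act on autoreactive receptors. An allele that has reached IGKJ5 has no further J segment to use, and B cells that have failed or used up kappa joining can go on to lambda. IGKJ3 of the mouse is known as a nonfunctional segment.

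The study compared 1 wild-type mouse (WT, strain C57BL/6JRj) with 1 heterozygous 564Igi mouse, by spleen cells. The 564Igi mouse carried the kappa allele Igktm1(Igk564)Tik and the heavy chain allele Ightm1(Igh564)Tik, on the B6.129S4(Cg) background. In this line rearranged heavy and kappa genes of an autoreactive antibody were placed in the immunoglobulin loci. In a heterozygote the other kappa allele can still rearrange. Ages are not among the labels used here. Erythroid cells were removed from both spleens by the marker Ter-119. The B and T cell receptor libraries of each mouse, 4 in all, were analysed. With 1 mouse per genotype no difference between the mice was tested against the spread between animals. Where a share is followed by a range, it is the exact (Clopper-Pearson) 95% interval. After a difference, in percentage points, the range is a Newcombe-type 95% interval that combines the exact limits of both shares. Both kinds cover counting error only.

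In WT 6499 B cells had a kept contig, with a median of 66 receptor UMIs. Of these, 5885 had a kappa primary light chain (the productive light chain with most UMIs) and 510 a lambda one. In 564Igi there were 3823 B cells with a median of 46 UMIs, of which 3292 had the candidate chain as primary, 269 another kappa chain and 88 a lambda chain. The candidate chain accounted for 3462 of 4804 kappa contigs in 564Igi and 0 of 7774 in WT. The rest that named a J comprised 6956 productive, 643 nonproductive and 56 V-less contigs in WT, and 293, 60 and 243 in 564Igi. A nonproductive contig names a V gene and a J segment but is not flagged productive, and a V-less contig names a J segment and no V gene. Barcodes called in both tables, 345 in WT and 373 in 564Igi, were left out, and 31 B cell barcodes occurred in both mice. Droplets with a pair of B cells were not removed, and their part in cells with several light chains was not tested.

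The J segments lie within a short stretch of chromosome 6 (RefSeq, GRCm38.p6), upstream of the constant gene. Igkj1 lies at 70722562 to 70722599, Igkj2 at 70722916 to 70722954, Igkj3 at 70723223 to 70723260, Igkj4 at 70723548 to 70723585 and Igkj5 at 70723886 to 70723923. Igkc, the constant exon joined to all of them by splicing, follows at 70726435 to 70726754.

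The following CDR3 sequences, 5′ to 3′ from the WT contig tables, show common CDR3 ends found with each J segment. Each is the commonest CDR3 with the named residue before the final threonine and phenylalanine, and the capitals mark its last 9 bases.

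IGKJ1, tryptophan: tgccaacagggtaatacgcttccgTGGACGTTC
IGKJ1, arginine: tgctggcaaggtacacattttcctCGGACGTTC
IGKJ1, proline: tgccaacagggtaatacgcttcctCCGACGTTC
IGKJ2, tyrosine: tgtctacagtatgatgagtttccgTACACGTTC
IGKJ4, phenylalanine: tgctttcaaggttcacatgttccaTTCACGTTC
IGKJ5, leucine: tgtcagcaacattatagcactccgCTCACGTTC

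The last 6 bases, ACGTTC, were shared by at least 99.75% of primary CDR3s of every J segment. The codon before them mostly went with the J, though it encoded proline with every J, from 5.16% in IGKJ4 to 10.6% in IGKJ1 chains. It encoded tyrosine in 86.4% of IGKJ2 chains, phenylalanine in 84.2% of IGKJ4 chains and leucine in 88.9% of IGKJ5 chains. IGKJ1 was the most varied, with tryptophan in 58.2% (55.8 to 60.5), arginine in 26.4% (24.4 to 28.5) and proline in 10.6% (9.24 to 12.1). The form with TGGACGTTC came from 69 V genes and that with CGGACGTTC from 55, so neither belonged to 1 V gene. In the IGKV16 family all 31 IGKJ1 chains had tryptophan, whereas in IGKV14 it was 25 of 62 against 31 of 62 with arginine.

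A CDR3 net charge (arginine and lysine minus aspartate and glutamate) of 1 or more was commonest with IGKJ1. It was found in 26.5% (24.4 to 28.6) of 1807 WT IGKJ1 chains, against 5.90% for IGKJ2, 6.14% for IGKJ4 and 4.22% (3.25 to 5.38) for IGKJ5. In 564Igi the IGKJ5 share was 13.6% (7.63 to 21.8) of 103 chains. It was 6.17% (2.03 to 13.8) of 81 chains without near copies of the candidate chain, which have the same V and J genes and at most 2 nucleotide mismatches in the CDR3. CDR3 length hardly separated the segments. A length of 11 residues was found in 86.6% to 92.9% of WT chains of each J. Chains of 10 or fewer residues made up 10.6% (9.24 to 12.1) of IGKJ1, 7.13% of IGKJ2, 4.55% of IGKJ4 and 5.31% (4.22 to 6.59) of IGKJ5 chains.

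IGKJ3 was the 1 segment with no kept contig. Over all barcodes and without filters it was named in 88 WT and 51 564Igi contigs. None of these had a V gene, and none had more than 2 UMIs. Among primary productive chains it was 0 of 5885 in WT, so that a share of up to 0.0510% (3 cells) is allowed. Shares allowed by a count of 0 are given in this way throughout. The upper end of the exact interval is higher, here 0.0627%.

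IGKJ1 and IGKJ2 led the WT repertoire. IGKJ1 was used by 1807 of 5885 cells, or 30.7% (29.5 to 31.9), and IGKJ2 by 1796, or 30.5% (29.3 to 31.7), so that these neighbours in the order did not differ beyond counting error. IGKJ5 followed at 24.9% (23.8 to 26.1), and IGKJ4 was lowest at 13.8% (13.0 to 14.7). In the 269 other kappa cells of 564Igi the order was different, with IGKJ5 at 38.3% (32.5 to 44.4), IGKJ2 at 32.3% (26.8 to 38.3), IGKJ1 at 17.5% (13.1 to 22.5) and IGKJ4 at 11.9% (8.28 to 16.4). The IGKJ1 difference of -13.2 points (-17.7 to -8.02) was -6.91 points (-13.5 to 0.563) with each distinct chain counted once, at 29.3% in WT and 22.4% in 564Igi, an interval that includes 0.

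Within 564Igi the IGKJ5 share differed between cells that also held the candidate chain and cells that did not. Of the 135 cells without a kept contig of it, 71 used IGKJ5, or 52.6% (43.8 to 61.2), and 14 used IGKJ1, or 10.4% (5.79 to 16.8). Of the 134 cells that held it as a further chain, 32 used IGKJ5, or 23.9% (16.9 to 32.01), and 33 used IGKJ1, or 24.6% (17.6 to 32.8). Cells with the candidate chain were lower by 28.7 points for IGKJ5 (difference -28.7, from -39.8 to -16.8), and higher by 14.3 points for IGKJ1 (4.74 to 23.6). The candidate contig had a median of 17 UMIs in the 134 cells, the same as where it was primary. As a background, 37 of 4573 barcodes called only as T cells in 564Igi held it, or 0.809% (0.570 to 1.11), with a median of 2 UMIs. The part of free RNA and of a second B cell in the droplet in this split was not tested. The IGKJ4 shares of the cells without and with it differed by less than counting error, at 12.6% and 11.2% (difference -1.40, from -9.72 to 6.93). The split depends on the high-confidence flag. When the flag was not required, 95 cells were without the candidate chain and 174 held it. IGKJ4 or IGKJ5 was then used by 69.5% and 39.7% of them (difference -29.8, from -41.5 to -17.0).

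Set beside WT, the cells that also held the candidate chain had an IGKJ5 share within counting error of WT, with a difference of -1.06 points (-8.09 to 7.14). For cells without it the difference was 27.6 points (18.8 to 36.4). Near copies of the candidate chain, which share its J segment IGKJ5, were primary in 22 of the 269 cells, all without a kept candidate contig. They were also primary in 42 of the 5885 WT kappa cells, where the candidate chain was not found. With near copies left out, IGKJ5 was used by 43.4% of the 564Igi cells without a kept candidate contig, and the difference within 564Igi was -19.5 points (-31.4 to -7.14). Among cells with exactly 1 productive heavy chain it was -30.9 points (-43.2 to -17.3).

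**Figure D1:**
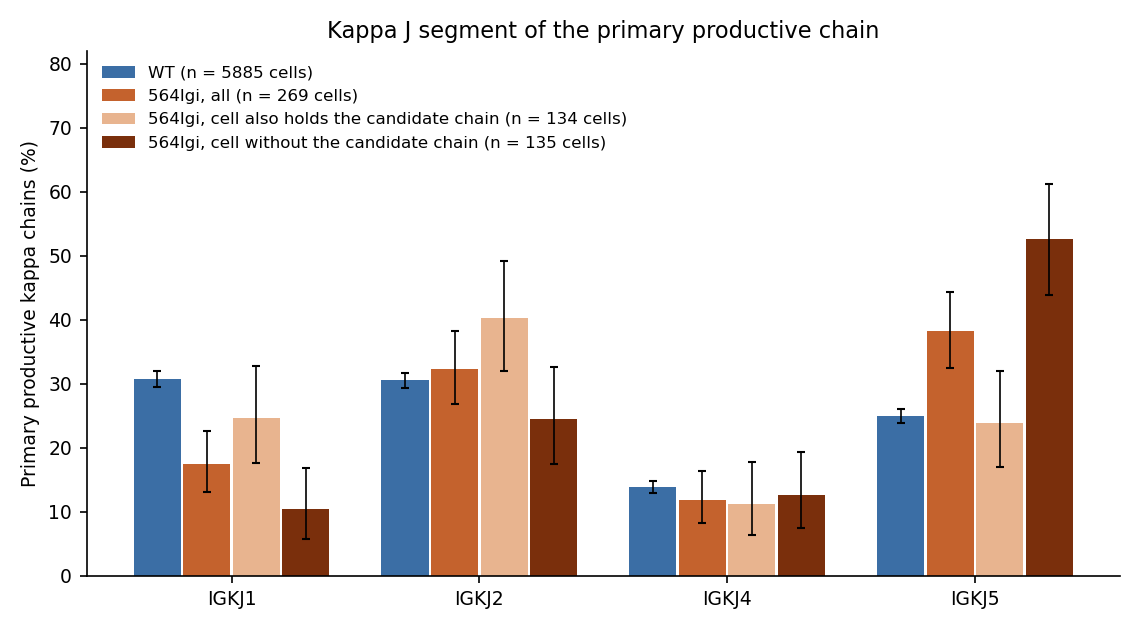
Share of primary productive kappa chains (%, y axis) that used each J segment in WT cells and in 564Igi cells. The 564Igi cells are shown all together and split by whether they also held a kept contig of the candidate knock-in chain. Bars are shares and whiskers exact 95% intervals; IGKJ5 stands at 52.6% in 564Igi cells without the candidate chain and at 23.9% and 24.9% in 564Igi cells with it and in WT.

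Giving WT the V genes of 564Igi left most of the IGKJ5 difference in place. When the J shares within each V gene of WT were weighted to the V genes of the 269 cells, IGKJ5 came to 27.3%, against 38.3% measured, and IGKJ1 to 26.5%, against 17.5%. With near copies left out, the weighted IGKJ5 share was 24.6%, against 32.8% measured. Leaving out the whole IGKV4 family, to which the V gene of the candidate chain belongs, gave 23.5% in WT and 29.5% in 564Igi, a difference of 6.01 points (-0.0868 to 12.7) that no longer cleared counting error. IGKJ1 stayed lower there, at 32.9% and 20.7% (difference -12.2, from -17.5 to -6.03).

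The J segments were also set beside the heavy chain of the cell. The heavy chain with the CDR3 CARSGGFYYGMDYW, the commonest heavy CDR3 of 564Igi in these data, is called the candidate knock-in heavy chain. In 564Igi the 28 kappa cells with the candidate knock-in heavy chain used IGKJ2 in 14 cases (exact interval 30.6% to 69.4%), against 27.2% (21.2 to 33.8) of 206 cells with another heavy chain. The difference was 22.8 points (2.36 to 43.1). IGKJ5 was used by 32.1% and 40.3% of them (difference -8.15, from -25.9 to 13.2). In WT a heavy CDR3 net charge of 1 or more was found in 22.3% (20.1 to 24.6) of cells with IGKJ1 and 25.5% (22.8 to 28.3) of cells with IGKJ5, with the other J segments between. Of WT cells with IGKJ5, 20.6% (18.1 to 23.2) had IGHJ1, the first heavy J segment, against 15.4% (13.5 to 17.4) of those with IGKJ1. In the same order IGHJ2 was at 31.4% and 31.6%, IGHJ3 at 22.0% and 22.5%, and IGHJ4 at 26.0% and 30.5%. Cells that repeat a chain were counted separately.

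The nonproductive contigs were all flagged full length, but few were called unable to make a chain. The productive flag was False in 32 of 643 in WT and 5 of 60 in 564Igi, the same numbers as had a CDR3, and the rest had no call. In WT the last segments were more frequent among them than among productive contigs. IGKJ4 or IGKJ5 made up 48.1% (44.1 to 52.0) of 643 nonproductive and 39.7% (38.6 to 40.9) of 6956 productive contigs, a difference of 8.32 points (4.23 to 12.4). IGKJ4 was at 18.97% and 14.1% (difference 4.84, from 1.76 to 8.19), IGKJ5 at 29.1% and 25.6% (3.48, from -0.159 to 7.30), and IGKJ2 at 24.1% and 30.1% (-6.04, from -9.48 to -2.38).

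IGKJ5 was the segment that set lambda cells apart. Of 103 nonproductive kappa contigs in WT lambda cells, 52 used IGKJ5, or 50.5% (40.5 to 60.5), against 129 of 527 in kappa cells, or 24.5% (20.9 to 28.4). The difference was 26.0 points (15.2 to 36.6), and 27.8 points (15.1 to 40.1) among cells with exactly 1 heavy chain. IGKJ1 went the other way, at 14.6% (8.39 to 22.9) and 30.9% (27.0 to 35.1), and IGKJ4 was at 15.5% and 20.1% (difference -4.58, from -12.0 to 4.52). Productive kappa contigs in lambda cells were also rich in IGKJ5, at 44.3% (35.6 to 53.2) of 131 contigs. The part of kappa cells in the same droplet was not tested.

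The 564Igi lambda cells held 9 nonproductive kappa contigs, 6 with IGKJ5 and 3 with IGKJ4, so that all 9 used the last segments (exact interval 66.4% to 100%). The 40 nonproductive contigs of 564Igi cells with the candidate chain as primary had the opposite profile. Of these, 20 used IGKJ1, 7 IGKJ2, 8 IGKJ4 and 5 IGKJ5. Their IGKJ1 share (exact interval 33.8% to 66.2%) was higher than the 30.9% of WT kappa cells by 19.1 points (2.35 to 35.7).

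Of all 60 nonproductive contigs in 564Igi, 16 joined the V gene IGKV14-111, or 26.7% (16.1 to 39.7), against 9 of 643 in WT, or 1.40% (0.642 to 2.64). This V gene was chosen after its values were seen. IGKJ1 was its partner in 11 of the 16, and 11 lay in cells with the candidate chain as primary. The 16 contigs had 14 distinct lengths. Without this V gene IGKJ1 made up 36.4% (22.4 to 52.2) of the remaining 44 contigs, against 45.0% of all 60.

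**Figure D2:**
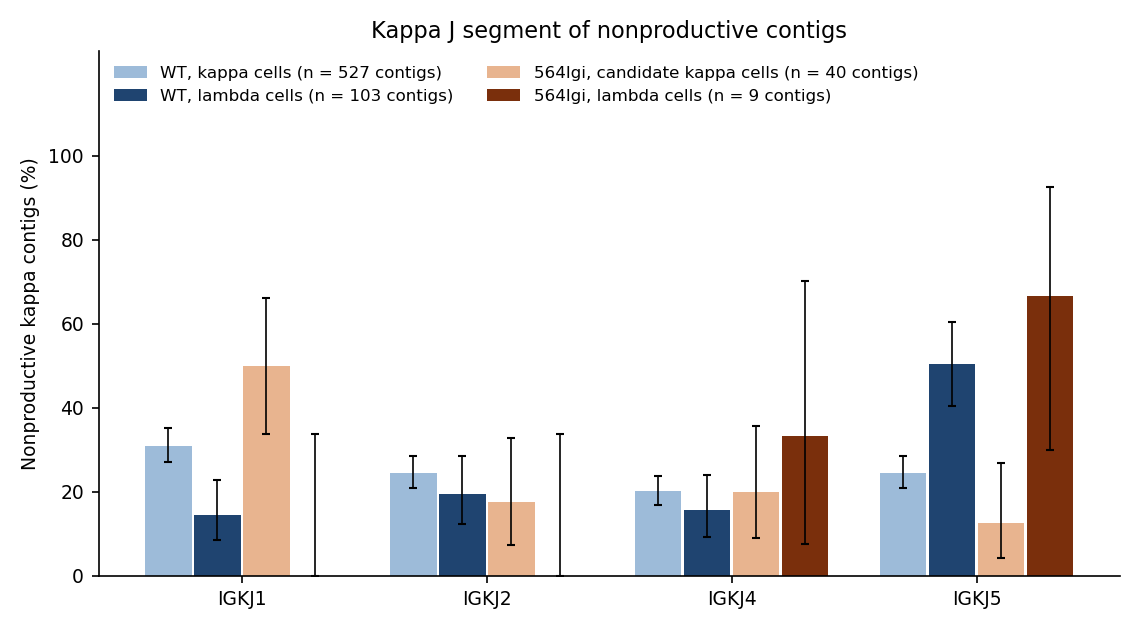
Share of nonproductive kappa contigs (%, y axis) that used each J segment, by mouse and by the primary light chain of the cell, with exact 95% intervals as whiskers. IGKJ5 is at 50.5% in WT lambda cells and 24.5% in WT kappa cells; IGKJ1 is used by 20 of 40 contigs in 564Igi cells with the candidate chain as primary.

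How often such contigs were seen at all also followed the light chain. A nonproductive kappa contig was found in 102 of 510 WT lambda cells (exact interval 16.6% to 23.7%) and in 8.96% (8.24 to 9.71) of WT kappa cells, a difference of 11.05 points (7.57 to 14.9). In 564Igi it was found in 10.2% (4.78 to 18.5) of lambda cells and 1.22% (0.869 to 1.65) of cells with the candidate chain as primary (difference 9.01, from 3.55 to 17.3). Lambda cells were read more deeply, with medians of 87 and 82.5 receptor UMIs against 65 in WT kappa cells and 45 in candidate chain cells, and the part of depth in these differences was not tested. As a background, barcodes called only as T cells held a nonproductive kappa contig in 0 of 3263 cases in WT, which allows up to 0.0919%, and in 1 of 4573 in 564Igi. The median receptor UMI count of those barcodes was 0.

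Any kappa contig with a V and a J segment, the candidate chain aside, was present in 37.8% (33.6 to 42.2) of WT lambda cells and 14.8% (8.11 to 23.9) of 564Igi lambda cells, a difference of -23.1 points (-31.0 to -13.0). The candidate chain itself was read in 36 of the 88 564Igi lambda cells, or 40.9%. IGLV1 was the V gene of the lambda chain in 68.6% (58.7 to 77.5) of the 102 WT lambda cells with a nonproductive kappa contig and in 60.3% (55.4 to 65.1) of the 408 without, so that intervals overlapped. IGLJ1 was used in 57.8% and 53.7% of them.

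Further kappa chains of a WT cell used the last segments slightly more often than first chains. In WT the second or later productive kappa contigs, 962 in all, used IGKJ4 or IGKJ5 in 43.1% (39.98 to 46.3), against 39.2% (38.0 to 40.4) of 5994 first contigs. The difference of 3.95 points (0.555 to 7.38) was 5.80 points (1.12 to 10.6) when both first and further contigs were taken from cells with 1 heavy chain, at 37.7% and 43.5%. Of the 20 such contigs in 564Igi 12 used IGKJ4 or IGKJ5. First and further contigs were ranked by UMIs, and WT primary contigs had a median of 35 UMIs with IGKJ5 against 43 with IGKJ1. The part of this ranking in the difference was not tested.

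Within a cell, productive joints lay downstream of nonproductive ones about as often as upstream. In 485 WT cells with 1 productive and 1 nonproductive kappa contig, the productive J lay downstream of the nonproductive one in 167, or 34.4% (30.2 to 38.9), and upstream in 185, or 38.1% (33.8 to 42.6), and was the same in 133. Both joints used IGKJ5 in 40 of these cells and IGKJ1 in 53. Cells whose productive joint used IGKJ5 had a nonproductive IGKJ5 joint in 31.7% (23.7 to 40.6) of 126 cases, against 20.9% (14.8 to 28.1) of 158 cells whose productive joint used IGKJ1. In 709 WT cells with a pair of productive kappa contigs, the J of the contig with fewer UMIs lay downstream in 279, upstream in 221 and was the same in 209. The part of UMI differences between J segments in this order was not tested. Contigs do not show which allele they came from, so joints on 1 allele and on both alleles cannot be told apart.

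The V gene was a strong correlate of the J segment in WT. Among the 16 kappa V families with at least 50 cells, IGKJ1 ranged from 2 of 282 chains in IGKV17, or 0.709% (0.0860 to 2.54), to 63.7% (58.7 to 68.4) in IGKV10. IGKJ5 ran from 6.52% (4.30 to 9.40) in IGKV10 to 49.2% (45.1 to 53.4) in IGKV8. IGKJ2 varied less, from 20.8% in IGKV8 to 46.4% in IGKV2, and IGKJ4 from 7.02% in IGKV10 to 24.5% in IGKV17. IGKJ4 or IGKJ5 was used by over 50% of chains in 4 families, namely IGKV17 (64.5%), IGKV8 (59.0%), IGKV4 (57.9%) and IGKV5 (50.5%).

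**Figure D3:**
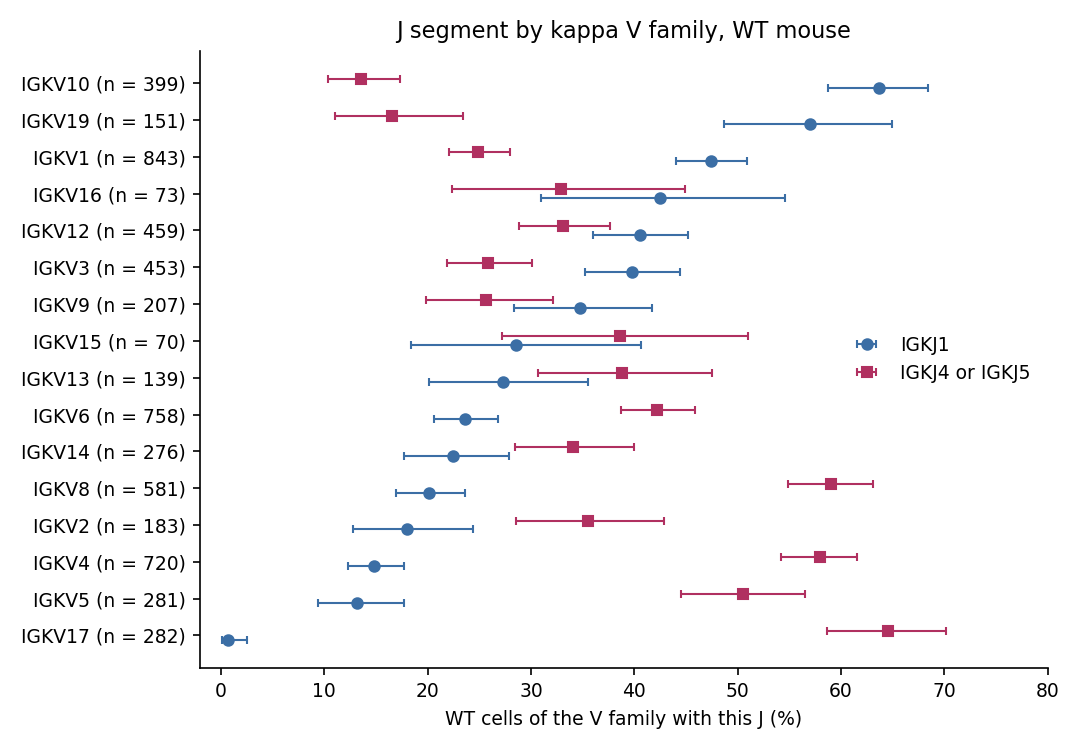
WT primary kappa chains of each V family (y axis, with its number of cells) that used IGKJ1 (circles) or IGKJ4 or IGKJ5 (squares), in %, with exact 95% intervals. Families are ordered by IGKJ1, from 0.709% in IGKV17 to 63.7% in IGKV10, the family with the lowest IGKJ4 or IGKJ5 share at 13.5%.

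Single V genes spread further. Over 50 V genes with at least 40 WT cells, the median IGKJ1 share was 30.4% and the median IGKJ4 or IGKJ5 share 36.8%. IGKV10-96 (64.6%), IGKV10-94 (59.1%) and IGKV1-135 (59.0%) were joined most often to IGKJ1. IGKV2-137 (65.4%), IGKV8-28 (55.6%) and IGKV14-111 (47.2%) led for IGKJ2, and IGKV4-91 (33.3%), IGKV8-19 (32.6%) and IGKV4-57 (30.3%) for IGKJ4. IGKJ5 was the partner of 76.6% (70.8 to 81.7) of IGKV8-24 chains, 61.2% of IGKV4-55 and 52.2% of IGKV8-19. IGKV8-24 joined IGKJ5 in 190 of 248 cells. The IGKJ5 CDR3 shown above, listed with IGKV8-24, was found in 184 WT cells. Cells that repeat a CDR3 were counted separately in these shares and intervals.

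Late and early users stood far apart. IGKJ4 or IGKJ5 was used by 84.8% (71.1 to 93.7) of IGKV8-19 chains, 83.5% of IGKV8-24 and 80.6% of IGKV4-55. The share was 12.5% (9.12 to 16.6) in IGKV10-96, 13.6% in IGKV12-98 and 15.4% in IGKV1-135. IGKV8-24 lies at 70216858 to 70217421 on chromosome 6 and IGKV10-96 at 68631965 to 68632430.

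V genes that rarely used IGKJ1 in productive chains also used it less often than other V genes in nonproductive joints. In 9 V genes IGKJ1 was under 5% of WT primary chains, a limit set after the values were seen, and over them it made up 9 of 674 chains, or 1.34%. Their nonproductive contigs, which did not choose them, used IGKJ1 in 9 of 115, or 7.83% (3.64 to 14.3). The other 41 V genes had 35.7% (34.4 to 37.1) among primary chains and 35.0% (30.2 to 40.1) among 377 nonproductive contigs. The 9 genes were IGKV2-137, IGKV4-57, IGKV4-68, IGKV4-91, IGKV6-20, IGKV8-19, IGKV8-28, IGKV17-121 and IGKV17-127. In IGKV2-137 IGKJ1 made up 0 of 81 primary chains, allowing up to 3.70% (3 cells), and 1 of 21 nonproductive contigs.

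At the other end, IGKV1-135 used IGKJ1 in 59.0% (52.9 to 65.0) of 266 primary chains and 58.3% (47.1 to 69.0) of 84 nonproductive contigs. It was the V gene of 13.1% (10.6 to 15.9) of WT nonproductive contigs and 4.49% (4.01 to 5.00) of productive ones. J shares of primary chains and nonproductive contigs did not match in every V family. IGKV8 used IGKJ5 in 49.2% (45.1 to 53.4) of primary chains and 27.1% (17.2 to 39.1) of 70 nonproductive contigs. The primary share was 286 of 581 cells. The IGKJ5 CDR3 shown above, listed with IGKV8-24, was found in 184 WT cells. The part of this repeated CDR3 in the IGKV8 mismatch was not tested. IGKV3 used IGKJ4 or IGKJ5 in 25.8% (21.9 to 30.1) and 57.5% (40.9 to 72.96, 40 contigs). IGKV10 used IGKJ1 in 63.7% (58.7 to 68.4) and in 9 of 22 (exact interval 20.7% to 63.6%), so that intervals overlapped. IGKV4 was closer, with IGKJ4 or IGKJ5 in 57.9% and 60.6%.

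Place in the locus went with the J segment only in part. V genes within 1 Mb of Igkj1 used IGKJ4 or IGKJ5 in 43.1% (41.1 to 45.0) of 2462 cells, those from 1 to 2 Mb away in 48.3% (45.2 to 51.4) of 1056, and those over 2 Mb away in 30.1% (28.2 to 31.97) of 2367. The nonproductive contigs gave 54.5% (48.2 to 60.8), 54.6% (45.7 to 63.4) and 38.5% (32.5 to 44.7) in the same order. V genes of 1 stretch nonetheless differed widely, as the plot of J shares by distance shows. In 564Igi the shares were 51.4%, 79.3% and 32.4% of 109, 58 and 102 cells, and the middle stretch holds the V gene of the candidate chain and its near copies.

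**Figure D4:**
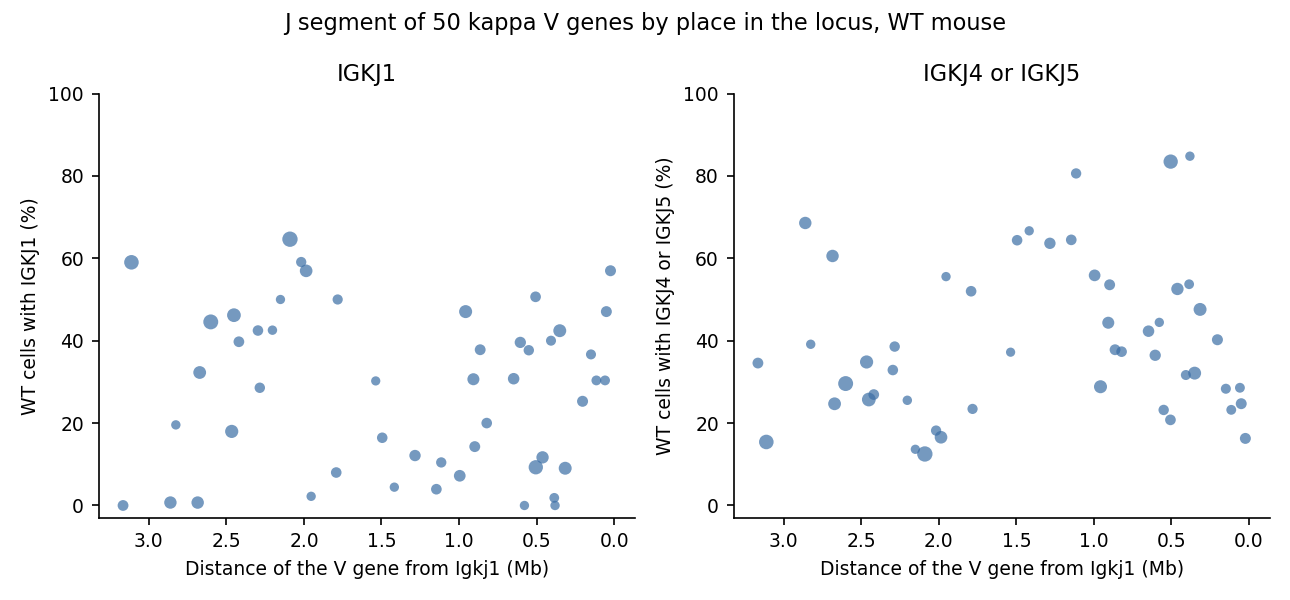
Share of WT cells (%, y axes) that joined each of 50 V genes to IGKJ1 (left) or to IGKJ4 or IGKJ5 (right), against the distance of the V gene from Igkj1 (Mb, x axes, nearest V genes at the right). Each point is 1 V gene, larger with more cells; V genes close to each other reach from 0% to over 50% IGKJ1.

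By the V genes they were joined to, IGKJ2 and IGKJ4 were most alike. The total variation distance between their profiles over 92 V genes (the share of 1 profile that would have to move to give the other) was 23.0%. IGKJ1 was nearest to IGKJ2 (36.1%) and IGKJ5 to IGKJ4 (27.2%), and IGKJ1 and IGKJ5 were farthest apart, at 53.7%. These distances are descriptions and include counting noise.

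UMI counts of primary contigs had medians of 43 for IGKJ1, 43 for IGKJ2, 41 for IGKJ4 and 35 for IGKJ5 in WT, with quartiles that overlapped (28 to 61 for IGKJ1, 19 to 58 for IGKJ5). Nonproductive contigs had medians of 15, 13, 13 and 10 UMIs in the same order.

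V-less IGKJ1 contigs were more frequent in B cells of 564Igi than of WT. A V-less IGKJ1 contig was found in 232 of 3823 564Igi B cells, or 6.07% (5.33 to 6.87), and in 44 of 6499 WT B cells, or 0.677% (0.492 to 0.908), a difference of 5.39 points (4.62 to 6.22). IGKJ1 made up 232 of the 243 V-less contigs in 564Igi, with 5 of IGKJ2, 6 of IGKJ5 and 0 of IGKJ4, and 44 of the 56 in WT, or 78.6% (65.6 to 88.4). In lambda cells with a V-less contig it was mostly of another J segment, in 5 of 6 cells in WT and 3 of 4 in 564Igi. Over all barcodes and without filters, V-less contigs named IGKJ1 in 221 and IGKJ5 in 196 cases in WT, and in 387 and 243 in 564Igi. The kept V-less IGKJ1 contigs carried a median of 9 UMIs in 564Igi and 8 in WT, and their median lengths of 344.5 and 308 bases were shorter than those of primary IGKJ1 contigs, 520 and 519 bases.

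Within 564Igi, V-less IGKJ1 went with the candidate chain. It was present in 225 of 3292 cells with that chain as primary, or 6.83% (6.00 to 7.75), and in 5 of 269 other kappa cells, or 1.86% (0.606 to 4.28), a difference of 4.98 points (2.41 to 6.53). The candidate chain cells were the less deeply read, with a median of 45 receptor UMIs against 84. It was also less frequent in cells with several joints. Counting the candidate chain as a joint, it was found in 6.75% (5.93 to 7.65) of 3407 564Igi cells with 1 V-J kappa contig and in 1 of 203 cells with 2 or more, or 0.493%. In WT the shares were 0.821% of 4749 cells and 0.298% of 1342 (difference -0.523, from -0.893 to -0.00292). Lambda cells of WT held it in 1 of 510 cases, and barcodes called only as T cells in 0 of 3263 in WT and 0 of 4573 in 564Igi, which allow up to 0.0919% and 0.0656%.

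**Figure D5:**
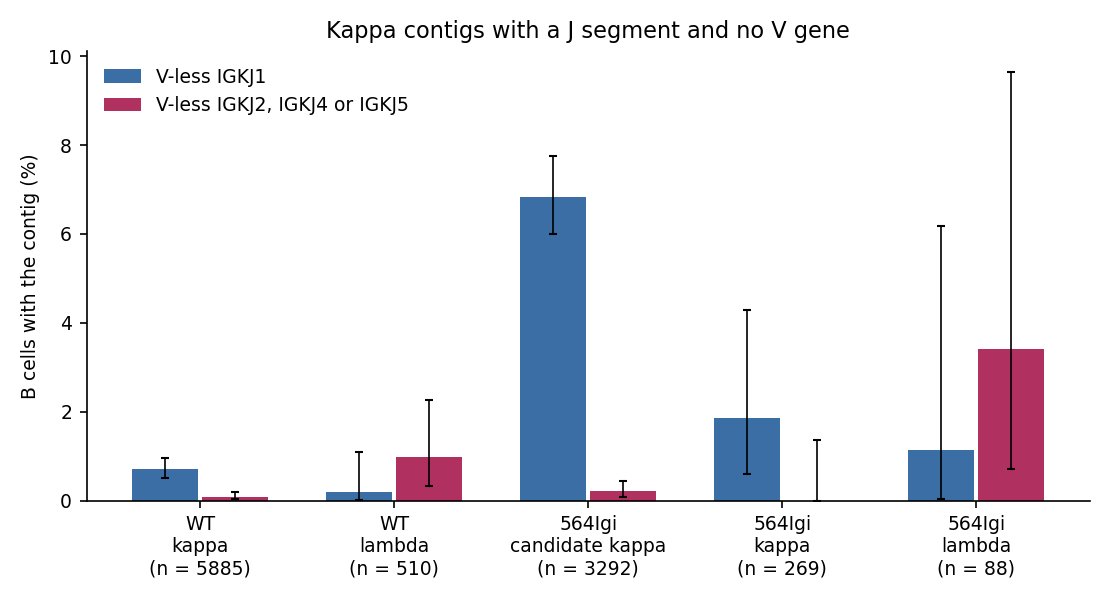
Share of B cells (%, y axis) with a V-less IGKJ1 contig or a V-less contig of another J segment, by mouse and primary light chain (x axis, with the number of cells). Whiskers are exact 95% intervals; the highest bar is IGKJ1 in 564Igi cells with the candidate chain, at 6.83%, against 0.714% in WT kappa cells.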

How the data were processed

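The authors deposited 1 contig table for each of 4 V(D)J libraries, with raw read and UMI counts per contig that are not normalized, per the file headers, and with contig lengths, gene names, CDR3 and flags used as given. Cell Ranger 3.0.2 and mm10 are named in the submitters' processing notes, without a role. The sources used here do not say how cells and confidence were called. Gene expression was not analysed here, so a B cell rests on receptor calls alone. The B cell tables held 927382 UMIs in WT and 747499 in 564Igi.

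Kept contigs had the high-confidence flag and at least 2 UMIs. Chains of a cell were ranked by UMIs, with the left-out chain included in the ranking. Named V genes had at least 40 WT cells (families 50). The 3 with the highest share of each J, and the 3 highest and 3 lowest for IGKJ4 or IGKJ5, are given. The 98 kappa V names all matched RefSeq (GRCm38.p6), whose coordinates were used. The strand of V genes was not used here. The members, lists and rules were chosen with earlier results of these data known.

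Shares, intervals and reweighting were computed in Python 3.11.15 with SciPy 1.17.1, NumPy 2.4.6 and pandas 2.3.3, drawn with matplotlib 3.10.9, and tested on simulated contigs. With 1 mouse per group no p-value was computed. As alternatives, the confidence flag was ignored, the minimum was 1 or 5 UMIs, barcodes of both tables were kept, only cells with 1 heavy chain were kept, distinct chains were counted once, near copies were left out, or kappa UMIs were thinned to 10 per cell. Thinning all receptor UMIs to 20, the reweighting, the IGKV4 exclusion, the split of 564Igi by candidate chain, the nonproductive contrast of WT lambda and kappa cells and the V-less shares were chosen after seeing the data.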

Additional observations from a re-analysis of the deposited data

Results flagged for a closer look

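Nonproductive and productive kappa contigs were compared by the same rule in both mice. The differences had opposite signs, although 4 of the 6 intervals below include 0. The cells behind them were unlike. In 564Igi, 40 of the 60 nonproductive contigs lay in cells with the candidate chain as primary, whose candidate contigs were left out. Only 6 lay in other kappa cells. In WT 527 of 643 lay in kappa cells. For IGKJ4 or IGKJ5 the nonproductive share was higher by 8.32 points (4.23 to 12.4) in WT and differed by -7.86 points (-21.9 to 6.80) in 564Igi. For IGKJ1 the differences were -2.28 points (-5.88 to 1.51) in WT and 27.3 points (13.5 to 41.3) in 564Igi. For IGKJ5 they were 3.48 points (-0.159 to 7.30) and -13.6 points (-25.4 to 0.461). The difference between the mice was not tested, since each is 1 animal.

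The T cell tables, which the comparisons use only to remove barcodes, also held contigs with a kappa J segment, 10 in WT and 7 in 564Igi. None of them had 2 or more UMIs.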

How the results depend on the processing

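Over 10 results and their alternatives, 90 recomputed differences all kept the sign of the value reported, and 87 stayed within its 95% interval. The exceptions were the IGKJ1 difference between the mice, -6.91 points with each distinct chain counted once (-13.5 to 0.563), and the V-less IGKJ1 difference, 6.52 points without the confidence flag and 4.55 points with all receptor UMIs thinned. The cause was not tested. Of the 90 recomputed differences, 67 had an interval that excluded 0. Some alternatives could not move some results. All nonproductive contigs were full length, so keeping only full-length contigs returned the same values. Leaving out near copies also returned the same values for nonproductive and V-less contigs and for lambda cells. The IGKJ4 or IGKJ5 difference between the mice ranged from 7.41 to 14.9 points, and that within 564Igi by candidate chain from -33.9 to -21.3. In 564Igi the few nonproductive (60) and second (20) contigs limit precision. Their IGKJ4 or IGKJ5 differences from WT were -4.72 points (-18.1 to 9.26) and 16.9 points (-7.30 to 38.0), the latter 22.5 points (9.28 to 33.96) without the confidence flag. For all kappa contigs in lambda cells, 234 in WT and only 13 in 564Igi, the difference was 30.3 points (1.32 to 40.3). Its interval excluded 0 under 6 of 9 alternatives. Thinning kappa UMIs and counting distinct chains were not run for the shares of cells. No paired analysis was possible because each group is 1 mouse.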
